A study of Mus musculus with 6 samples.

Results

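A set of 9 genes, listed as recently recruited monocyte genes, was followed in MHCII hi cells separated by CX3CR1. The cells came from the muscularis externa (ME) of the mouse small bowel. The genes were taken by symbol from the table of normalized RNA-seq values as Ly6c2, Lyz2, Plac8, S100a8, S100a9, S100a4, F13a1, Vcan and Ccl28. Of these 9 genes, 7 were found among the 26110 genes of the table and 6 passed a filter on low values, while S100a8 and S100a9 were not analysed here. The data are 3 libraries of MHCII hi CX3CR1- cells and 3 libraries of MHCII hi CX3CR1+ cells from naive, untreated mice. Every mouse was CX3CR1+/GFP, with GFP in place of a Cx3cr1 allele, so that the cells of both groups kept a single working copy of the receptor gene. GFP from that allele was the gate, which makes Cx3cr1 a check of the labels and not a result. The mice were female, and their age is not given in the sources used here. Tissue from 6 mice was pooled for a group, without a statement on whether the 3 libraries came from separate pools, so that p-values measure the spread between libraries, which may be technical. In the labels the cells are dendritic cells and in the study macrophages, and here they are named by their gates.

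Classical monocytes leave the bone marrow with high Ly6C on their surface, follow CCR2 ligands into tissues and there give rise to macrophages. On the way they lose Ly6C and the calgranulins and gain MHCII, phagocytic receptors and, in the gut wall, CX3CR1. In the gut this sequence is known as the monocyte waterfall, and the ME holds both long-lived macrophages and cells renewed from blood. Most of the genes followed here stand for different steps and functions of young monocytes. Ly6c2 encodes the surface antigen itself, Lyz2 encodes lysozyme M, S100a4 and Vcan belong to motility and matrix, F13a1 encodes the A subunit of coagulation factor XIII, and Plac8 encodes a small cysteine-rich protein of myeloid and some epithelial cells. Ccl28 encodes a chemokine of mucosal epithelia that attracts antibody-secreting cells, and it is not a product typical of monocytes.

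The genes did not move as a group. S100a4, Plac8 and Vcan were higher in CX3CR1- cells, with no overlap between the 3 libraries of each group. F13a1 and Lyz2 had their higher means in CX3CR1+ cells, with differences of less than 2-fold. Ly6c2 varied widely among the CX3CR1- libraries and its difference was not called, and Ccl28 was near the limit of measurement in both groups. A gene was called at a 2-fold difference, that is 1 on the log2 scale, and an adjusted p of at most 0.05 in limma, over all 17812 genes with a mean of at least 10. By this rule 3 of the 6 tested genes were called higher in CX3CR1- cells and 0 were called lower, while 12.2% of all tested genes were called higher, 8.15% lower and 20.4% in either direction. Among the 3 called genes Plac8 passed the filter through CX3CR1- libraries alone, with a CX3CR1+ mean of 3.40, which fixed its direction. The groups did not overlap for 4 of the 7 genes with values, 3 with CX3CR1- on top and 1 with CX3CR1+ on top, against 20.3% and 19.8% of all tested genes in these directions and 40.0% in both. The median log2 difference of the 6 genes was 2.69, CX3CR1- minus CX3CR1+, and that of all tested genes was -0.0035.

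**Figure D1:**
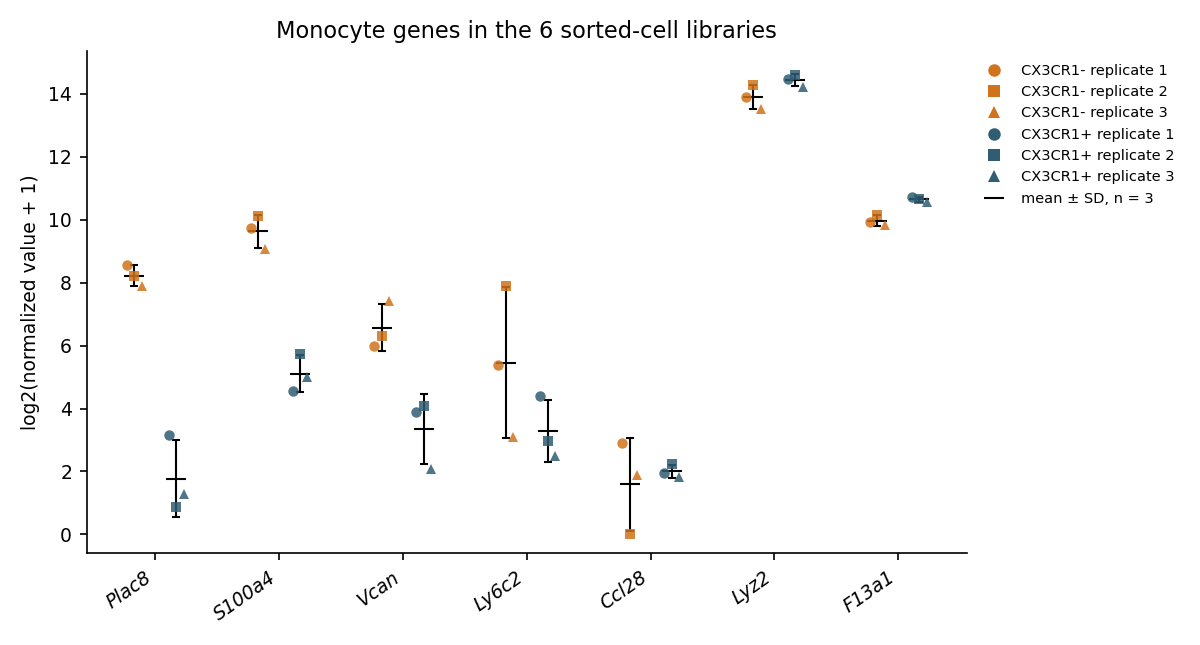
Normalized values of the 7 genes in each of the 6 libraries, as log2(value + 1) on the vertical axis, with orange for CX3CR1- and blue for CX3CR1+ libraries, marker shapes for the replicates and black bars for mean ± SD (n = 3). Plac8, S100a4 and Vcan form separate groups with CX3CR1- on top, F13a1 forms separate groups with CX3CR1+ on top, and Ly6c2, Ccl28 and Lyz2 overlap.

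The libraries held about 5346381 to 17616761 reads assigned to genes, with overlapping depths in the 2 groups. These depths are rough estimates from a step that recurs among the small values of each library. Of the values above 0, 42.6 to 44.7% per library were whole multiples of the step. The worth of 3 reads was a normalized value between 1.39 and 5.36, under which a value was treated as not measurable. Cx3cr1 was 18.9 to 28.5 in CX3CR1- and 347 to 380 in CX3CR1+ libraries, in keeping with the gate named in the labels. Mitochondrial transcripts took 47.5 to 54.9% of the normalized total in CX3CR1- and 18.1 to 21.2% in CX3CR1+ libraries. Scaling to equal totals outside the mitochondrial genome was among the alternatives given further on. Any other part of this difference in the results was not tested. In sorted bulk samples fewer cells with a transcript and less transcript per cell cannot be told apart.

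The stretches of DNA before the starts of 4 of the genes are shown so that the 3 genes that were called can be set beside F13a1, which leaned the other way. Each is the 250 bases before the transcription start in RefSeq, on genome build GRCm38.p6, written 5′ to 3′ on the strand of the gene. They lie at chr3:90603520-90603769 on the plus strand for S100a4, and on the minus strand at chr5:100572206-100572455 for Plac8, chr13:89742513-89742762 for Vcan and chr13:37050245-37050494 for F13a1. Plac8 and F13a1 had 2 RefSeq entries each, of which the one furthest upstream was taken. In GENCODE the Plac8 gene reaches to 100572245. The last bases of its window, with the ETS match nearest the start, thus lie inside that annotation. Capitals mark matches on either strand to the 6 motifs searched, which were an ETS core (GAGGAA), C/EBP (TTGCNNAA), a TATA box (TATAAA), KLF (GGGTGG), RUNX (TGTGGT) and AP-1 (TGANTCA).
S100a4: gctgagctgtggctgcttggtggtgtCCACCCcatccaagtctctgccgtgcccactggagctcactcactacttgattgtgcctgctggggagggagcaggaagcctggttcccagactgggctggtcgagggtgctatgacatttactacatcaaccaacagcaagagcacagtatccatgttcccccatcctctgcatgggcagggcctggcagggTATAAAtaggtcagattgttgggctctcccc
Plac8: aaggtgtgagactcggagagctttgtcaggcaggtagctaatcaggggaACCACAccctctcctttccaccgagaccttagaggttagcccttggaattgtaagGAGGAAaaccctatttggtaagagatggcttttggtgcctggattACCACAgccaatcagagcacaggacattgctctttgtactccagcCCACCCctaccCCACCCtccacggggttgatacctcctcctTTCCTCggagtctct
Vcan: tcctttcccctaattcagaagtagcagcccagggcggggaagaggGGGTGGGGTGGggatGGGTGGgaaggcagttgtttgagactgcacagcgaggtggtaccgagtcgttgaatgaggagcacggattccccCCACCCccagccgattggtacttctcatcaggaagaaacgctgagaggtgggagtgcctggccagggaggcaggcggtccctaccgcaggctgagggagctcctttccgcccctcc
F13a1: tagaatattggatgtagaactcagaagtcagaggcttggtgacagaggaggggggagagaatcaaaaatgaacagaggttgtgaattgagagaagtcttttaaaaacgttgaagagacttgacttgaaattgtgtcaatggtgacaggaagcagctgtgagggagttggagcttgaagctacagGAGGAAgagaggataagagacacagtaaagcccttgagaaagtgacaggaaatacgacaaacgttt
S100a4 had a TATA box 31 bases before its start and 1 KLF match. Plac8 had 2 matches each for the ETS core, KLF and RUNX. Vcan had 4 KLF matches, of which 2 overlap by 1 base, and F13a1 had 1 ETS match. None of the 4 stretches held a C/EBP or AP-1 match in these letters. Among all 32851 promoter stretches of the same length, 23.3% held the ETS core, 9.56% C/EBP, 12.37% the TATA box, 28.1% KLF, 14.05% RUNX and 6.75% AP-1, so that such matches are common. They describe the letters of these windows and no binding was measured.

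S100a4, a calcium-binding protein that acts on myosin and marks motile monocytes, dendritic cells and fibroblasts, lies on chromosome 3 from 90603771 to 90606045 on the plus strand of GRCm38. Its values were 843, 1105 and 534 in CX3CR1- replicates 1, 2 and 3. In CX3CR1+ replicates 1, 2 and 3 they were 22.7, 52.5 and 31.2. Every CX3CR1- library thus stood well above every CX3CR1+ library. The means were 828 ± 286 and 35.4 ± 15.4 (SD, n = 3), a ratio of 23.4. The log2 difference was 4.53 ± 0.36 (SE), with a 95% interval from 3.73 to 5.33 and an adjusted p of 1.74e-05 in limma. Of the 31-base words of its transcripts, 49.2% also occur in Gm42674, an overlapping gene on the same strand that was not analysed here, so that the 2 genes cannot be fully told apart by pseudoalignment.

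S100a4 sits in the S100 cluster, whose proteins share a calcium-binding fold and bind annexins, cytoskeletal proteins or receptors. The family list used here holds 13 genes annotated on this chromosome, of which 10 were in the table and 8 were tested, and 5 of the 8 were called higher in CX3CR1- cells. In the whole family 7 of 10 tested genes were called higher, 0 lower, and the median log2 difference was 3.18. S100a6, whose start lies 9.11 kb behind that of S100a4, had 684, 709 and 616 in CX3CR1- and 35.8, 34.8 and 18.5 in CX3CR1+ libraries. Its log2 difference of 4.51 ± 0.29 (SE; limma adjusted p = 6.43e-06) was close to that of S100a4. S100a11 and S100a10, some 2917 and 2951 kb further along the chromosome, had log2 differences of 3.08 ± 0.16 and 3.36 ± 0.32 (SE; limma adjusted p = 2.69e-06 and 5.07e-05). S100a10 forms a complex with annexin A2, and S100a11 with annexin A1. S100a1, S100a13 and S100a3, nearer to S100a4 than these, had log2 differences of 0.26, 0.58 and 1.39 and were not called. S100a16, which lies between S100a13 and S100a3, was called higher, with 3.28 ± 0.56 (SE; limma adjusted p = 0.0020). It had 23.8 to 54.6 in CX3CR1- and 2.62 to 3.99 in CX3CR1+ libraries, the latter near the limit of measurement. S100a16 thus passed the filter through CX3CR1- libraries alone, which fixed its direction. All of S100a4, S100a6, S100a10 and S100a11 are also expressed by epithelial cells and fibroblasts, whose markers are given further on with those of dendritic cells. Among CX3CR1- libraries S100a4 and the summed conventional dendritic cell markers were highest in replicate 2. The epithelial sum was highest in replicate 1 and the fibroblast sum in replicate 3. The part of any of these cell types in the S100 values was not tested.

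**Figure D2:**
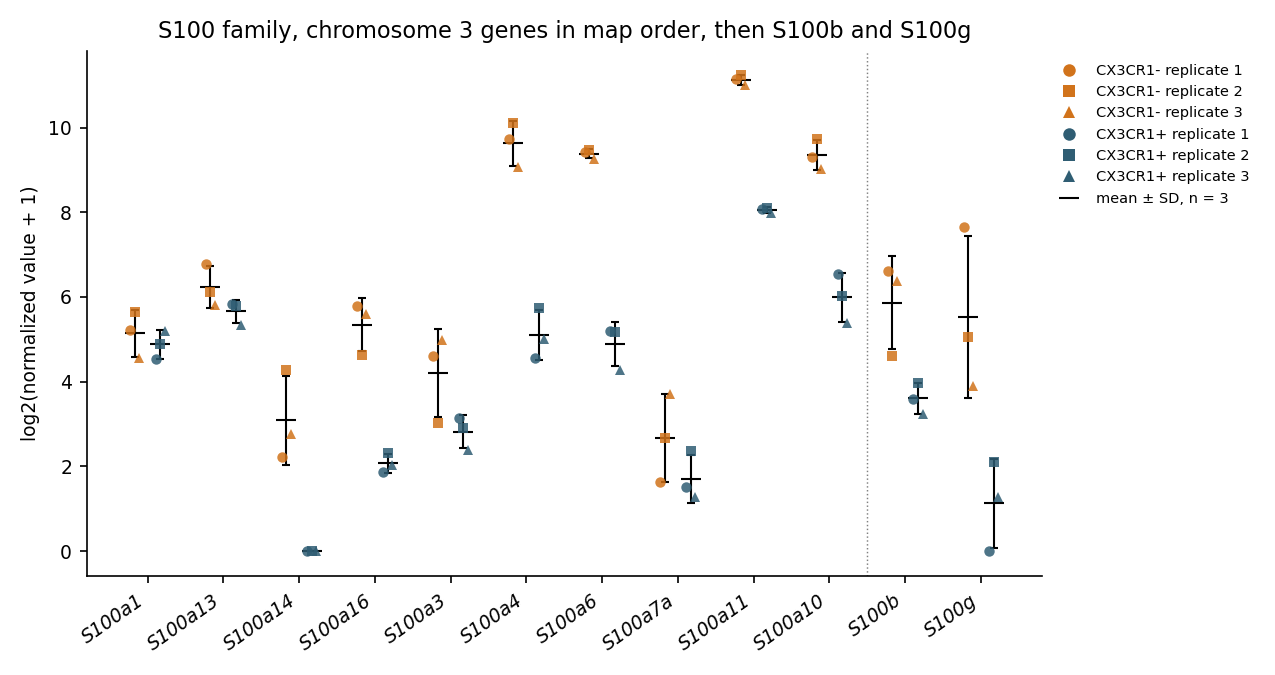
Normalized values of 12 S100 genes in each library, as log2(value + 1), with the genes of chromosome 3 in map order to the left of the dotted line, orange for CX3CR1-, blue for CX3CR1+ and black bars for mean ± SD (n = 3). S100a4, S100a6, S100a10, S100a11 and S100a16 separate by group, whereas S100a1 and S100a13 overlap.

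The annexins and other partners of these proteins were mixed. Of 11 tested genes 5 were called higher and 2 lower in CX3CR1- cells, with a median log2 difference of 0.96. Anxa2 rose with a log2 difference of 4.75 ± 0.24 and Anxa1 with 3.81 ± 0.28 (SE; limma adjusted p = 1.91e-06 and 1.04e-05). Ahnak, a giant scaffold protein of the S100A10 and annexin A2 complex, rose by 2.06 ± 0.13 on the log2 scale (SE; limma adjusted p = 6.09e-06). Anxa3 and Myh10, a non-muscle myosin, were lower by -1.26 ± 0.24 and -1.06 ± 0.24 (SE; limma adjusted p = 0.00335 and 0.00895). The receptors and ligand partners of S100A8 and S100A9 leaned toward CX3CR1+ cells, with 0 of 4 tested genes higher and 2 lower. Those were Cd33, a sialic acid receptor, at 234 to 310 in CX3CR1- and 5065 to 5139 in CX3CR1+ libraries, and the scavenger receptor Cd36. Tlr4 had a log2 difference of -0.96 ± 0.26 (SE; limma adjusted p = 0.0215), which is just under the 2-fold limit.

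Plac8 lies on chromosome 5 from 100553725 to 100572245 on the minus strand and shared no 31-base word with another gene. Its values were 375, 294 and 236 in CX3CR1- replicates 1, 2 and 3. In CX3CR1+ replicates 1, 2 and 3 they were 7.94, 0.828 and 1.43, and the last 2 of these are at or under 3 reads. All CX3CR1- libraries were high and all CX3CR1+ libraries were near the limit of measurement. The means were 302 ± 69.7 and 3.40 ± 3.94 (SD, n = 3), a ratio of 88.8 that rests mostly on CX3CR1+ replicate 1. The log2 difference was 6.45 ± 0.58 (SE), with a 95% interval from 5.16 to 7.73 and an adjusted p of 3.45e-05 in limma. It was the largest difference among the 6 tested genes. The order of the CX3CR1- libraries was that of the summed epithelial markers, which were 33378, 28453 and 18120 in replicates 1, 2 and 3, and also that of the genes of serosal cavity macrophages, with sums of 847, 725 and 644. An order of 3 libraries cannot tell such lists apart, and the part of either cell type in Plac8 was not tested.

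Vcan encodes versican, a large chondroitin sulfate proteoglycan that binds hyaluronan and is made by young monocytes as well as by fibroblasts and smooth muscle. It lies on chromosome 13 from 89655312 to 89742509 on the minus strand. Its values were 63.0, 77.4 and 170 in CX3CR1- replicates 1, 2 and 3. In CX3CR1+ replicates 1, 2 and 3 they were 13.9, 16.03 and 3.21, of which the last is under 3 reads. The groups did not overlap, and CX3CR1- replicate 3 stood apart from the other two. The means were 103 ± 58.0 and 11.03 ± 6.86 (SD, n = 3), a ratio of 9.38. The log2 difference was 3.22 ± 0.60 (SE), with a 95% interval from 1.88 to 4.55 and an adjusted p of 0.00319 in limma. Leaving out CX3CR1- replicate 3 gave 2.79 with an adjusted p of 0.0206. The 10 fibroblast markers summed to 9553, 5471 and 16306 in CX3CR1- replicates 1, 2 and 3, and all 10 were highest in replicate 3. In CX3CR1+ libraries the same sum was 253 to 390.

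Of 13 tested genes that make, cut or bind versican and hyaluronan, Vcan included, 7 were called higher in CX3CR1- cells and 0 lower, with a median log2 difference of 1.43. Among them were 4 of the 5 tested ADAMTS proteases, enzymes known to cleave versican and related proteoglycans. Adamts1 rose by 2.12 ± 0.32 and Adamts4 by 2.94 ± 0.54 on the log2 scale (SE; limma adjusted p = 0.000861 and 0.00282). The values of Adamts4 were 121, 185 and 251 in CX3CR1- and 9.02, 48.2 and 24.7 in CX3CR1+ libraries. Adamts15 had a log2 difference of 1.16 (limma adjusted p = 0.224) and was not called. The hyaluronan receptor Cd44 had a log2 difference of 0.20 ± 0.16 (SE) and was not called.

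Ly6c2 encodes the Ly6C antigen by which classical monocytes are gated, and lies on chromosome 15 from 75108158 to 75111970 on the minus strand. Its values were 41.0, 235 and 7.54 in CX3CR1- replicates 1, 2 and 3. In CX3CR1+ replicates 1, 2 and 3 they were 20.04, 6.90 and 4.59. CX3CR1- replicate 2 was far above the rest, while replicate 3 of the same group fell inside the range of the CX3CR1+ libraries. The means of 94.5 ± 123 and 10.5 ± 8.33 (SD, n = 3) therefore differed by less than the SD of the CX3CR1- group. The log2 difference was 2.17 ± 1.03 (SE), with a 95% interval from -0.12 to 4.46 and an adjusted p of 0.163 in limma. An exact two-sided permutation test gave p = 0.2, where 3 libraries against 3 cannot go below 0.1. The outcome turned on which CX3CR1- library was left out. Without replicate 2 the log2 difference was 0.96 (limma adjusted p = 0.453), and without replicate 3 it was 3.35 (limma adjusted p = 0.0251) and would be called.

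Ly6c1, its neighbour of near-identical sequence, is best known from endothelium and T cells. Of the 31-base words of Ly6c2, 21.4% also occur in Ly6c1. Ly6c1 had 56.9, 101 and 35.8 in CX3CR1- and 8.96, 1.59 and 0 in CX3CR1+ libraries, and it was called higher, with a log2 difference of 4.35 ± 0.83 (SE; limma adjusted p = 0.00375). With a CX3CR1+ mean of 3.52 it passed the filter through CX3CR1- libraries alone, which fixed its direction. The sum of both genes does not depend on how the reads shared between them were split, although 46.8% of the words of Ly6c1 and 23.8% of those of Ly6c2 occur in some other gene and not all of these in the partner. It was 97.9, 336 and 43.3 in CX3CR1- and 29.0, 8.49 and 4.59 in CX3CR1+ libraries, so that the sums of the groups did not overlap. Endothelial markers were also higher in CX3CR1- libraries, with sums of 898 to 1212 against 335 to 599 and 6 of 7 tested genes called. In the Ly6 family as a whole 4 of 8 tested genes were called higher and 0 lower, with a median log2 difference of 1.98. They were Ly6c1, Ly6a with a log2 difference of 1.80, and the epithelial and B lineage genes Lypd8 and Ly6d.

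CX3CR1- replicate 2 was also the highest of its group for many other genes of classical monocytes. Of 20 such genes 11 had their highest CX3CR1- value in replicate 2, 4 in replicate 1 and 5 in replicate 3. Ifitm6, an interferon-inducible gene of monocytes, had 231, 325 and 138 in CX3CR1- replicates 1, 2 and 3. The B and plasma cell markers were highest in replicate 2 as well, at a sum of 4132 against 1861 and 2027 in replicates 1 and 3, so the order is not particular to monocyte genes.

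Lyz2, the lysozyme of monocytes, macrophages and neutrophils, lies on chromosome 10 from 117277331 to 117282321 on the minus strand and was by far the most abundant of the genes followed. Its values were 15273, 19826 and 11800 in CX3CR1- replicates 1, 2 and 3. In CX3CR1+ replicates 1, 2 and 3 they were 22877, 25006 and 19094. The groups overlapped, since CX3CR1- replicate 2 exceeded CX3CR1+ replicate 3. The means were 15633 ± 4025 and 22326 ± 2994 (SD, n = 3). The log2 difference was -0.54 ± 0.19 (SE), with a 95% interval from -0.96 to -0.12 and an adjusted p of 0.0656 in limma, and the exact permutation test gave p = 0.2. As a share of all transcripts outside the mitochondrial genome Lyz2 took 0.220 to 0.324% in CX3CR1- and 0.308 to 0.378% in CX3CR1+ libraries. With libraries set to equal totals of these transcripts the log2 difference was -0.36 (limma adjusted p = 0.126), and with quantile normalization it was -0.84 (limma adjusted p = 0.000980), still under the 2-fold limit.

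Lyz2 shares 32.8% of its 31-base words with Lyz1, the lysozyme of Paneth cells. Per kilobase of transcript Lyz2 exceeded Lyz1 by a factor of 4.29, 3.87 and 5.80 in CX3CR1- replicates 1, 2 and 3. In CX3CR1+ replicates the factor was 688, 480 and 1078. The Lyz2 level per kilobase thus remained above that of Lyz1 in every library, but part of the lysozyme transcript of CX3CR1- cells was Lyz1. The 2 genes together reached 14312, 18961 and 10513 per kilobase in CX3CR1- and 17409, 19041 and 14522 in CX3CR1+ libraries, which again overlapped. Of the 9 tested Paneth cell markers 4 were called higher in CX3CR1- cells, Lyz1 included. The other 8 were at 0 in every CX3CR1+ library and passed the filter through CX3CR1- libraries alone, which fixed their direction.

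F13a1 lies on chromosome 13 from 36867178 to 37050244 on the minus strand, and a pair of antisense genes overlap it. Factor XIII cross-links fibrin, and its A subunit is made by monocytes and by tissue macrophages. The values were 974, 1146 and 901 in CX3CR1- replicates 1, 2 and 3. In CX3CR1+ replicates 1, 2 and 3 they were 1681, 1623 and 1517. All CX3CR1+ libraries were above all CX3CR1- libraries. The means of 1007 ± 126 and 1607 ± 83.1 (SD, n = 3) gave a ratio of 1.60 in favour of CX3CR1+ cells. The log2 difference was -0.68 ± 0.16 (SE), with a 95% interval from -1.03 to -0.33, and its adjusted p of 0.0110 in limma passed while its size did not. Quantile normalization brought it to -0.32 with an adjusted p of 0.151. Of the 11 tested transglutaminase and coagulation genes 5 were called higher in CX3CR1- cells and 0 lower, with a median log2 difference of 0.98. F13a1 was among 4 of the 11 with a negative difference, beside Tgm1 (-1.58), Tgm2 and Tfpi (-0.36), none of which was called. Those called included F5, coagulation factor V, at 53.8 to 140 against 0 to 4.62, and the anticoagulant Thbd, with a log2 difference of 1.34. F5 passed the filter through CX3CR1- libraries alone, which fixed its direction. The tissue transglutaminase Tgm2 had a log2 difference of -0.75 ± 0.20 (SE; limma adjusted p = 0.0220), a size under the limit, as for F13a1.

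Ccl28 lies on chromosome 13 from 119623819 to 119654359 on the plus strand. Its values were 6.42, 0 and 2.69 in CX3CR1- and 2.91, 3.68 and 2.54 in CX3CR1+ libraries. In 3 of the 6 libraries it was at or under 3 reads, and the means of 3.04 ± 3.23 and 3.04 ± 0.58 (SD, n = 3) left it below the filter. A difference was not detectable at this depth. Its receptors Ccr10 and Ccr3 were also below the filter, whereas Ccl25, the other chemokine of the gut epithelium on that list, had 122 to 206 in CX3CR1- and 38.9 to 53.2 in CX3CR1+ libraries (limma adjusted p = 0.00156).

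**Figure D3:**
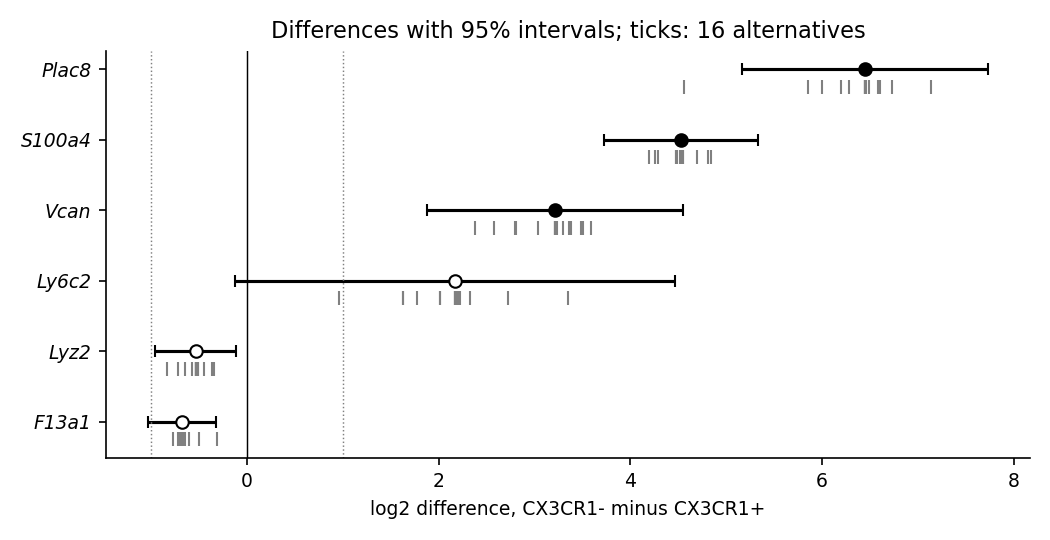
Log2 differences of the 6 tested genes, CX3CR1- minus CX3CR1+, with 95% intervals from limma; filled circles were called, open circles were not, dotted lines mark a 2-fold difference and grey ticks show 16 alternative settings. The interval of Ly6c2 runs from -0.12 to 4.46, and no tick crosses 0 for any gene.

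Set per kilobase of the longest coding transcript, so that genes can be compared, the levels in CX3CR1- cells ran from Lyz2 (mean 11879) over S100a4 (1662), F13a1 (255), Plac8 (247), Ly6c2 (115) and Vcan (8.32) to Ccl28 (0.81). In CX3CR1+ cells the order was Lyz2 (16965), F13a1 (407), S100a4 (71.2), Ly6c2 (12.8), Plac8 (2.78), Vcan (0.888) and Ccl28 (0.81). Means next to each other from F13a1 to Vcan in CX3CR1- cells differed by less than the larger SD of the pair. So did those from Ly6c2 to Ccl28 in CX3CR1+ cells, although Ly6c2 was above Plac8 in each CX3CR1+ library. Genes further apart in the order were separate, as with F13a1 at 228 to 290 and Vcan at 5.07 to 13.7 in CX3CR1- libraries. No test of gene against gene was run. F13a1 and S100a4 changed places between the groups.

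For each tested gene the 3 genes with the most similar profile were found by the Euclidean distance of centred log2(value + 1) over the 6 libraries, which is a description only, since all genes share the libraries. S100a4 was nearest to Ido1, which encodes a tryptophan-degrading enzyme, at a distance of 0.496, followed by Gm37248 and Clec2h. Ido1 was low, at 22.2 to 40.6 in CX3CR1- and 0 to 1.59 in CX3CR1+ libraries. Plac8 was nearest to Npc1l1, the cholesterol uptake transporter of enterocytes, at 0.656, followed by Gprin3 and 2200002D01Rik. Vcan was nearest to Rtkn (0.539), Gm12500 and Htra1, a secreted serine protease. Ly6c2 had no close match, with Sdhaf1 at 1.53 as the nearest, followed by 4930477G07Rik and Smarcd3. Lyz2 (G3bp2, Zfp622 and Gm37917, from 0.197 to 0.201) and F13a1 (Szrd1, Tmem164 and Peli1, from 0.108 to 0.142), whose own profiles are nearly flat, lay close to many genes.

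Other genes of classical monocytes were found on both sides. Of 17 tested, 6 were called higher and 3 lower in CX3CR1- cells, with a median log2 difference of 0.51. The adhesion glycoprotein Fn1 rose by 5.48 ± 0.29 and the guanine deaminase Gda by 4.79 ± 0.30 on the log2 scale (SE; limma adjusted p = 2.69e-06 and 5.62e-06). Ccr2, the receptor that draws monocytes out of the marrow, had 1933, 2619 and 1071 in CX3CR1- and 704, 731 and 817 in CX3CR1+ libraries, a log2 difference of 1.23 ± 0.28 (SE; limma adjusted p = 0.010). The Fc receptor Fcgr1 and the endotoxin co-receptor Cd14, both kept by macrophages, were lower by -2.60 ± 0.25 and -2.04 ± 0.29 (SE; limma adjusted p = 5.39e-05 and 0.000589). Ms4a4c was lower by -1.13 on the same scale. Chil3 and Hp, abundant in marrow monocytes, reached at most 6.80 and 4.99 in a library and were below the filter.

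Non-classical monocytes, the patrolling Ly6C-low cells of blood, were represented by 9 tested genes, of which 3 were called higher and 1 lower, with a median log2 difference of 0.64. Ace was at 80.8 to 117 in CX3CR1- and at 0.438 to 1.81 in CX3CR1+ libraries, the latter all under 3 reads. Pglyrp1 and Itgal had log2 differences of 2.86 and 1.18. Ace and Pglyrp1, with CX3CR1+ means of 1.01 and 3.83, passed the filter through CX3CR1- libraries alone, which fixed their direction. Gngt2 was lower by -2.26, and Nr4a1, the transcription factor these cells need, had a log2 difference of -0.31 ± 0.20 (SE) and was not called. Of 14 neutrophil genes 6 were in the table, 4 were tested, 0 were called higher and 1 lower. The latter was Csf3r, the G-CSF receptor, at 40.1 to 56.6 in CX3CR1- and 660 to 1076 in CX3CR1+ libraries. The granule genes Mpo and Ltf reached at most 17.8 and 3.18 over the 6 libraries.

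Transcription factors of the lineage had 2 of 10 tested genes higher and 6 lower in CX3CR1- cells, with a median log2 difference of -1.12. Klf4 and Klf2, which act in monocyte development and quiescence, rose by 1.005 ± 0.16 and 1.24 ± 0.27 on the log2 scale (SE; limma adjusted p = 0.00151 and 0.00754). Klf4 lay at the 2-fold limit, and only 1 gene of this list was called higher with a pseudocount of 10, with library weights, or without CX3CR1- replicate 2 or CX3CR1+ replicate 3. Maf, a factor of mature macrophages, was lower by -2.13 ± 0.15, and Cebpb by -2.27 ± 0.26 (SE; limma adjusted p = 9.82e-06 and 0.000158). The ligands that attract monocytes were mostly on the other side, as 6 of 11 tested chemokine and receptor genes were called lower in CX3CR1- cells and 2 higher. Ccl12, Ccl3 and Ccl4 differed by -5.13, -4.85 and -4.45 on the log2 scale, and Ccl2, the main CCR2 ligand, had 810 to 1483 in CX3CR1- and 6822 to 10575 in CX3CR1+ libraries. The other gene called higher beside Ccr2 was Ccl5. Of 16 resident macrophage genes 12 were called lower and 3 higher, with a median log2 difference of -1.85, and Adgre1, which encodes F4/80, had 383 to 397 in CX3CR1- and 3390 to 3522 in CX3CR1+ libraries. The 3 that were higher were Timd4, Lyve1 and Cd209f.

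**Figure D4:**
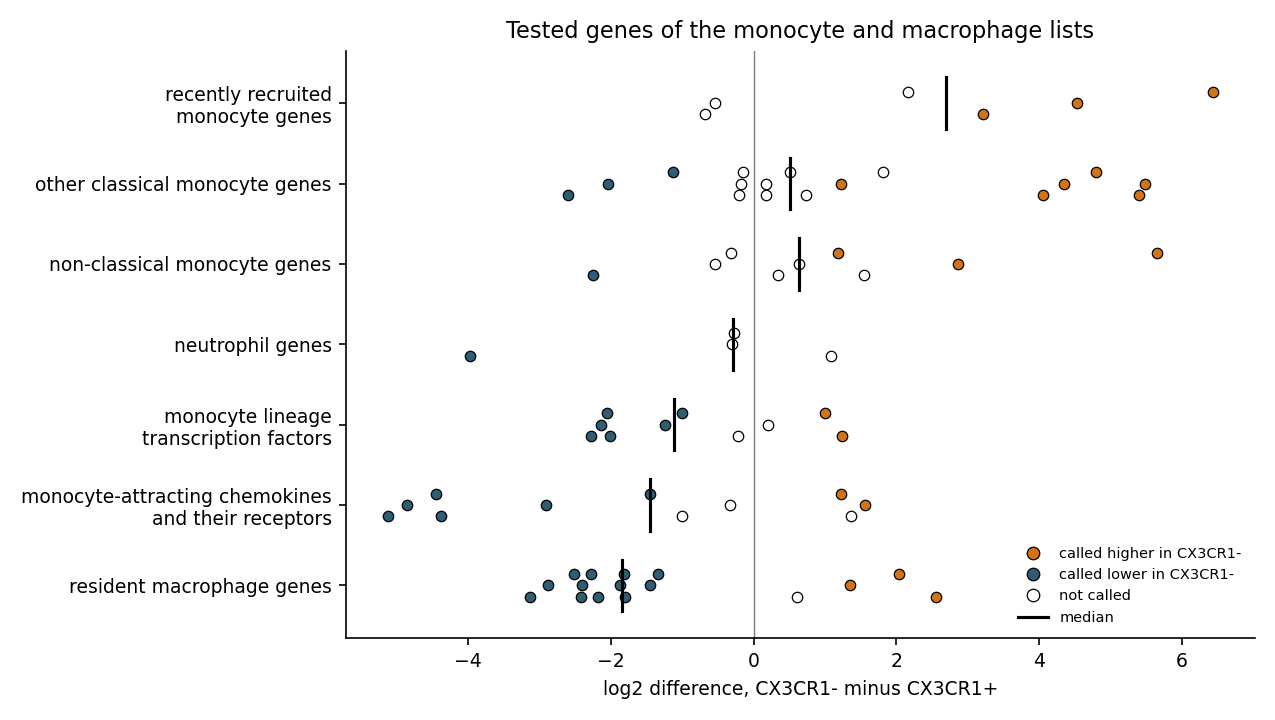
Log2 differences, CX3CR1- minus CX3CR1+, of the tested genes in 7 lists of monocyte and macrophage genes, with orange for genes called higher in CX3CR1- cells, blue for genes called lower, white for genes not called and black lines for medians. The genes of the top row spread from -0.68 to 6.45, and the resident macrophage genes have their median at -1.85.

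Markers of other cell types moved with the gate, and their part in the values of S100a4, Plac8, Vcan and Ly6c2 was not tested. All 13 tested epithelial markers were called higher in CX3CR1- cells, with sums of 18120 to 33378 against 39.7 to 74.7, and Tff3 and Olfm4 were at 0 in every CX3CR1+ library. At or under 3 reads in every CX3CR1+ library were 7 of the 15 listed epithelial markers. Those of the 7 that were tested passed the filter through CX3CR1- libraries alone, which fixed their direction. All 10 fibroblast markers were called higher, and so were 9 of 10 conventional dendritic cell markers, whose sums were 4794 to 5627 against 692 to 784. B and plasma cell markers (7 of 9 tested higher, sums of 1861 to 4132 against 80.2 to 106) did the same, with Mzb1 at 0 in every CX3CR1+ library. Genes of serosal cavity macrophages had 4 of 7 tested genes higher and 0 lower. Plasmacytoid dendritic cell markers had 2 of 6 higher and 2 lower, and T and NK cell markers 2 of 5 higher and 1 lower. The pan-leukocyte gene Ptprc had means of 3737 and 4225, and the MHCII gene H2-Ab1, a class for which the cells were gated, had 23976 and 37258 in CX3CR1- and CX3CR1+ libraries.

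**Figure D5:**
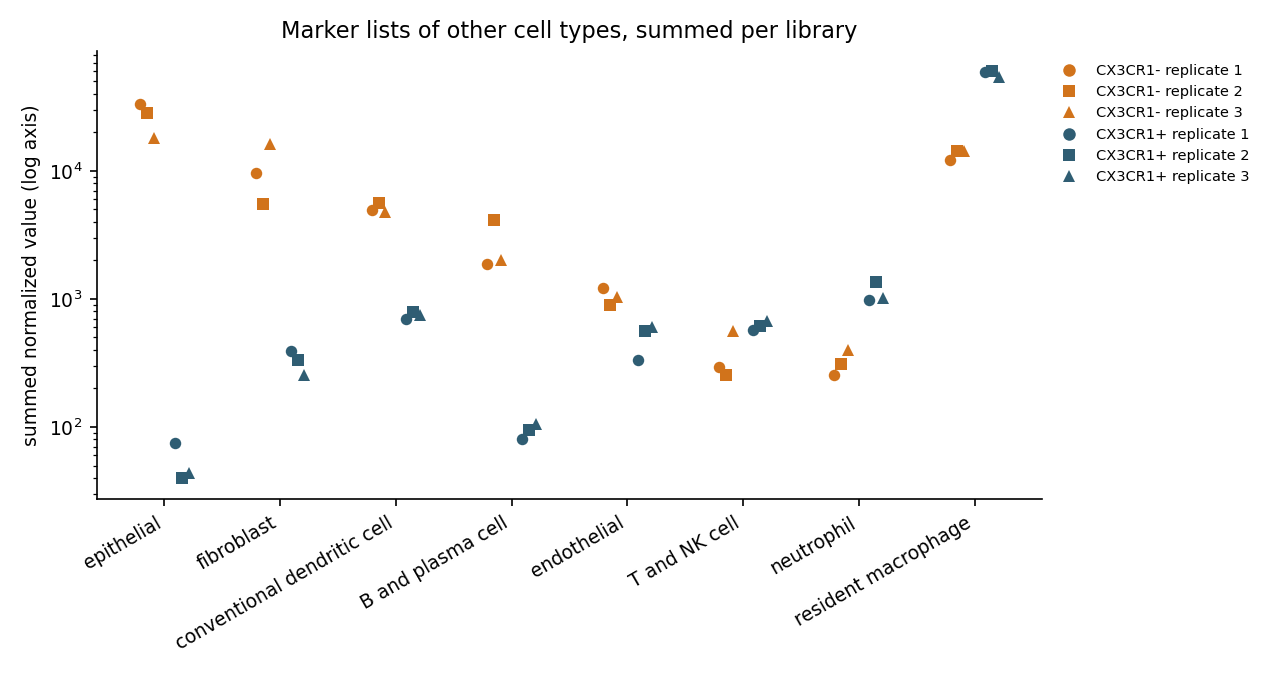
Summed normalized values of 8 marker lists in each library on a log axis, with orange for CX3CR1- and blue for CX3CR1+ libraries and marker shapes for the replicates. Epithelial, fibroblast, dendritic, B and plasma cell and endothelial sums are higher in all 3 CX3CR1- libraries, and resident macrophage sums, and neutrophil sums that consist mostly of Csf3r there, are higher in all 3 CX3CR1+ libraries.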

How the data were processed

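Bulk RNA-seq had been run on 3 MHCII hi CX3CR1- and 3 MHCII hi CX3CR1+ libraries with a TruSeq v2 kit, which does not mark strand. The authors pseudoaligned the reads with Kallisto to GENCODE vM16 (mm10), summed transcripts per gene with tximport and normalized with DESeq2, and the deposited values are a normalized signal, not counts. Groups came from the sample titles, and replicates were numbered in the order of the library numbers. The members and lists were chosen with earlier results of these data known. Genes with a mean of at least 10 were fitted as log2(value + 1) with limma 3.58.1 in R 4.3.3 (eBayes with trend), with p adjusted by Benjamini-Hochberg across the 17812 genes, and called at a log2 difference of 1 and an adjusted p of 0.05. Fold changes on this scale understate those of low genes. The method was tested on simulated data. Depth was estimated from the lowest of the most frequent small values of each library. Positions and 31-base words came from GENCODE M21 (GRCm38), promoters from RefSeq. Beside every followed gene and its paralogs, the text names from each list up to 3 called genes per direction, ranked by adjusted p, those that define a cell type, such as Adgre1, and some not called, such as Tlr4, Cd44, Tgm1, Tgm2, Tfpi, Adamts15 and Nr4a1, chosen after their values were seen. Some genes of the lists are not reported here by name. Alternatives were other pseudocounts, filters, scalings, variance priors and weights, a block for adjacent library numbers, and leaving out each library.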

Additional observations from a re-analysis of the deposited data

How the results depend on the processing

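All 6 tested genes kept their direction in all 16 alternatives. Their log2 differences, CX3CR1- minus CX3CR1+, ran from 4.55 to 7.14 for Plac8, 4.20 to 4.85 for S100a4, 2.38 to 3.59 for Vcan, 0.96 to 3.35 for Ly6c2, -0.84 to -0.35 for Lyz2 and -0.78 to -0.32 for F13a1. S100a4, Plac8 and Vcan were called in each, and Ly6c2 only without CX3CR1- replicate 3. The count of all genes called higher was 1232 instead of 2177 with a mean of at least 50, since fewer genes were tested, and 1693 to 2292 when a library was left out, while that of genes called lower was 1005 to 1570 against 1451. Quantile normalization moved the median log2 difference of all genes to -0.148 and equal nuclear totals to 0.164. Counts within the lists stayed within 1.5 times in 702 of 736 cases. Samples with adjacent library numbers had deviations that correlated at 0.104, 0.038 and 0.014. With 3 libraries per group these low values cannot decide whether such samples shared a pool. With adjacent library numbers as a replicate block Ly6c2 had an adjusted p of 0.0830 and Lyz2 of 0.00931 in limma, and neither was called. The value of 3 reads, 2.99 to 5.36 in CX3CR1- and 1.39 to 4.25 in CX3CR1+ libraries, limits Ccl28 and the CX3CR1+ levels of Plac8 and Vcan.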
